A study of Mus musculus with 119 samples.

Results

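The genes described here are 106 of the 18098 measured in mouse bone marrow-derived macrophages (BMDMs) whose resting level was low in cells without ELK1 and ELK4 and near WT in cells with a kinase-inactive TPL-2. They were picked on their measured values. The mean of 4 unstimulated *Elk1-/-Elk4-/-* libraries had to lie at least 0.7 below the mean of 6 unstimulated WT libraries on the deposited log2 scale, the mean of 6 unstimulated *Map3k8*[D270A] libraries had to lie within 0.3 of WT, and the WT mean had to be 5 or more, which held for 10407 genes outside the excluded symbols. *Elk1*, *Elk4* and symbols starting with Zfp were left out by the rule, although RefSeq now gives the rows *Gm8898* and *Gm14431* the names *Zfp966* and *Zfp967*. These rows hold the same values and are 1 profile counted as 2 genes.

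The resting values of these 3 genotypes chose the genes and are given below as a description, with no test. Tests were made on libraries after LPS, the bacterial lipopolysaccharide that signals through TLR4. At 100 ng/ml, WT and *Map3k8*[D270A] cells were sampled after 0.5 and 1 h with 6 libraries each and after 2 h with 4 and 6, and *Elk1-/-Elk4-/-* cells with 4 at each time. Further groups were *Nfkb1*[SS/AA] cells without LPS and at 0.5 and 1 h, with 6 libraries each, WT cells given the MKK1/2 inhibitor PD0325901 at 0.1 µM (3 libraries each at 10, 40 and 70 min without LPS, and 6 each with LPS for 0.5 and 1 h), WT cells given the solvent DMSO for 10 min (3 libraries), and WT cells given the RSK inhibitor RSKi47 at 2 µM (4 libraries at 10 min, then 3, 4 and 4 at 0.5, 1 and 2 h of LPS). All mice carry the strain label C57BL/6(NIMR), and no age is given in the labels. All cells were grown for a week in L-cell conditioned medium and kept overnight in low serum, so that "resting" means unstimulated cells in that medium. The deficiency of *Elk1* and *Elk4* was not limited to macrophages. Replicates are separate libraries, the labels do not say that each is another mouse, and p-values measure the spread between these libraries.

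ELK1 and ELK4 are ternary complex factors, which sit on DNA together with the serum response factor SRF and turn on immediate early genes such as *Egr1* once ERK1/2 has phosphorylated them. In macrophages, TPL-2, the kinase encoded by *Map3k8*, drives ERK1/2 activation after LPS, and it is held inactive by the *Nfkb1* product p105 until IκB kinase phosphorylates p105, which the *Nfkb1*[SS/AA] mutation blocks. ELK3 is the third factor of the family and can act as a repressor.

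*Elk1* and *Elk4* transcripts were low in every *Elk1-/-Elk4-/-* library. *Elk1* stood at 9.14 ± 0.051 in resting WT cells (SD, n = 6) and at 6.36 ± 0.177 in *Elk1-/-Elk4-/-* cells (n = 4), and *Elk4* at 7.72 ± 0.088 and 5.71 ± 0.171. *Elk3* was near the same level in the resting groups (10.39 in WT and 10.38 in *Elk1-/-Elk4-/-* cells) and *Srf* read 10.19 and 10.00. At 1 h of LPS *Elk3* was lower in *Elk1-/-Elk4-/-* cells by a difference of -0.21 ± 0.032 (SE, limma, adjusted p = 2.23e-07), and *Srf* by -0.18 ± 0.048 (limma, adjusted p = 0.00164).

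The *Elk1-/-Elk4-/-* libraries carry another experiment label than the WT and *Map3k8*[D270A] libraries, so genotype and experiment cannot be told apart in their comparison. Each of the PD0325901, RSKi47 and *Nfkb1*[SS/AA] sets also has a label of its own. Macrophage markers were high throughout: the summed log2 level of 8 of 8 markers ranged from 18.56 to 18.77 in resting WT libraries and from 18.31 to 18.40 in *Elk1-/-Elk4-/-* libraries. All 9 neutrophil markers were present in the table, and their summed level was 6.43 to 7.23 in resting WT and 10.05 to 10.54 in *Elk1-/-Elk4-/-* libraries. At 1 h of LPS 6 of the 6 neutrophil markers tested were higher in the latter by a median of 3.25, among them *S100a8*, *Ltf* and *Ngp*. The markers *Ly6g*, *Elane* and *Mpo* were not tested. Their resting means were low in both genotypes and higher in *Elk1-/-Elk4-/-* cells (-0.23, -0.13 and 0.72 in WT and 0.07, 0.42 and 1.91 in *Elk1-/-Elk4-/-* cells). Of the other lists, B cell markers had summed levels of 5.85 to 6.47 in resting WT and 6.63 to 7.08 in *Elk1-/-Elk4-/-* libraries, and megakaryocyte markers 10.65 to 11.43 and 11.49 to 11.81. The 1 gene tested in each was higher at 1 h, *Cd79b* by 0.67 (limma, adjusted p = 9.16e-04) and *Pf4* by 0.65 (adjusted p = 0.00218), and the other megakaryocyte markers *Itga2b* and *Gp9* had resting means of 2.57 and -1.97 in WT and of 3.09 and -1.94 in *Elk1-/-Elk4-/-* cells. The part of these markers in the results was not tested. In bulk RNA, fewer cells of a type and less RNA per cell cannot be told apart.

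The genes so chosen span many macrophage functions, from *Apoe*, the lipoprotein of macrophage cholesterol efflux, through the complement gene *C1qa* and the fractalkine receptor *Cx3cr1* to the iron exporter *Slc40a1*. Another 32 genes were as low in *Elk1-/-Elk4-/-* cells but differed by 0.3 or more in *Map3k8*[D270A] cells, and 170 met the mirrored rule with higher values. The median resting difference over the 106 genes was -0.87 in *Elk1-/-Elk4-/-* cells and -0.06 in *Map3k8*[D270A] cells, as the rule sets. The largest was that of *Apoe* at -1.70, followed by *Plxdc2*, a transmembrane protein with a plexin domain, at -1.67 and by the chemokine *Cxcl14* at -1.63. Just inside the limit lay *Gclm* at -0.71, *1500011K16Rik* at -0.70 and *Col20a1* at -0.70, and just outside it *Tmem178*, *2610035D17Rik* and *Pgp*, each at -0.70 when rounded.

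Resting libraries that took no part in the choice lay between the 2 extremes. The group mean of *Elk1-/-Elk4-/-* cells was below that of untreated *Nfkb1*[SS/AA] cells for 104 of the 106 genes (background 49.4%), below that of the DMSO-treated WT cells for 101 (49.0%), and below that of RSKi47-treated cells for 98 (49.8%). It was the lowest of all 9 groups without LPS for 94 genes (21.9%). The rule chose the genes for low means in these same *Elk1-/-Elk4-/-* libraries, and nothing is read from the counts. The distance was smaller than from the WT libraries used by the rule, with a median of -0.65 from *Nfkb1*[SS/AA] cells and of -0.56 from DMSO-treated WT cells. Seen the other way, the median over these genes of DMSO-treated minus untreated WT cells was -0.32, and that of PD0325901-treated minus untreated WT cells was -0.35 at 10 min.

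Libraries could be separated gene by gene without a test. For 56 of the 106 genes all 4 resting *Elk1-/-Elk4-/-* libraries lay below each of the 34 other libraries without LPS, where 5.22% of the 11884 genes tested did so; the rule used part of these libraries and nothing is read from that count. At 1 h of LPS, in libraries the rule did not use, the 4 *Elk1-/-Elk4-/-* libraries lay below each of the 28 others for 52 genes, against 5.36% of all genes tested, and below each WT library for 96, against 18.2%. Among the 52 were *Apoe*, *Cxcl14*, *Clec7a* (the beta-glucan receptor Dectin-1), *Fcgr2b* (the inhibitory Fc receptor), *Slc11a1* (the metal transporter of phagosomes), *Runx3* and *Mmp12*.

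**Figure D1:**
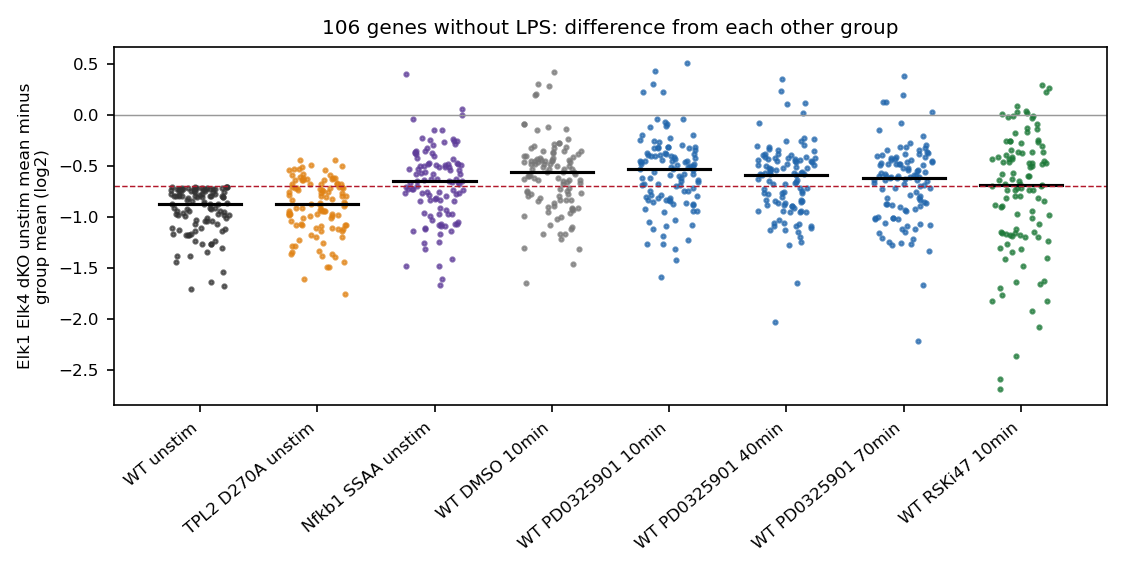
Mean log2 value of resting *Elk1-/-Elk4-/-* cells minus that of each other group without LPS, 1 point per gene for the 106 genes, with the median as a black line and the limit of the rule at -0.7 as a dashed line. The points lie below the dashed line against WT unstim by choice, and the medians against the other experiments sit between -0.53 and -0.68.

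Library by library, the *Elk1-/-Elk4-/-* cells stood apart after LPS. After centering each gene on its mean over all 119 libraries, the median over the 106 genes was between -0.708 and -0.533 in every *Elk1-/-Elk4-/-* library, with or without LPS. It was between 0.093 and 0.382 in the WT libraries and between 0.027 and 0.318 in the *Map3k8*[D270A] libraries of the same experiment. In the *Nfkb1*[SS/AA], PD0325901, DMSO and RSKi47 libraries it was between -0.112 and 0.133. The resting libraries of the first 3 genotypes chose the genes, and nothing is read from them. After LPS alone the range was -0.708 to -0.533 in *Elk1-/-Elk4-/-*, 0.093 to 0.377 in WT and 0.027 to 0.310 in *Map3k8*[D270A] libraries. No group overlapped with the *Elk1-/-Elk4-/-* libraries there, and the WT and *Map3k8*[D270A] ranges overlapped with each other. The PD0325901 libraries with LPS lay below both of these ranges, at -0.072 to -0.020 at 0.5 h and -0.091 to -0.019 at 1 h. The RSKi47 libraries with LPS, at -0.103 to 0.051, lay below the WT range.

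**Figure D2:**
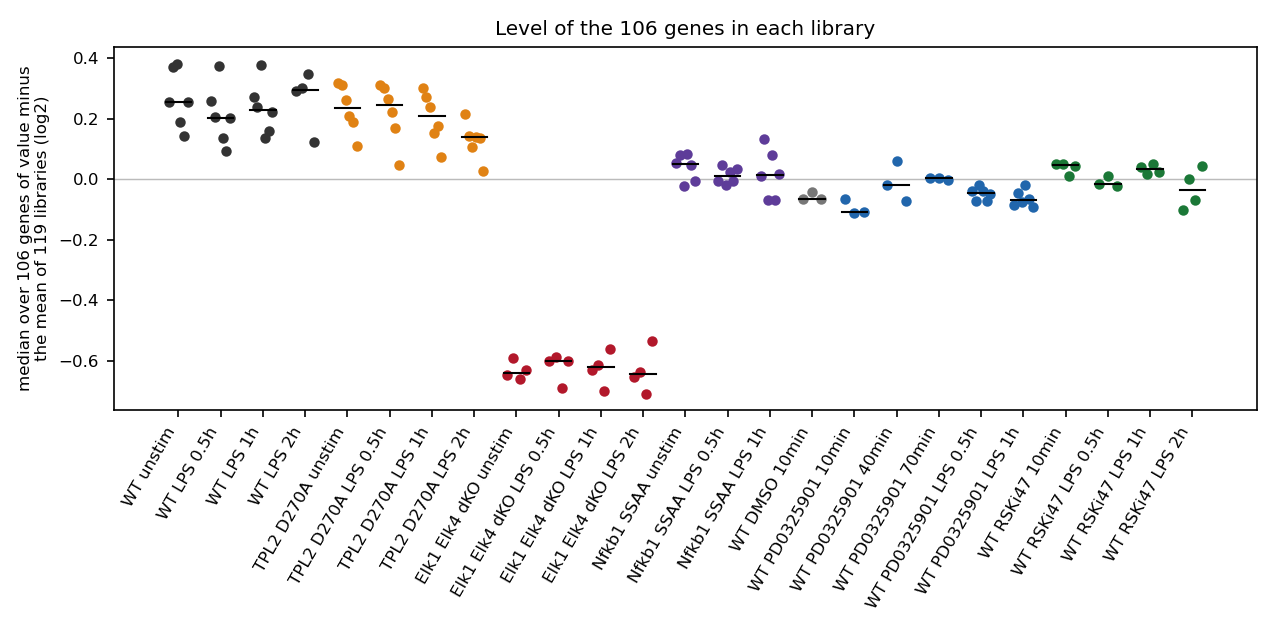
Median over the 106 genes of the log2 value minus the gene's mean over 119 libraries, 1 point per library, grouped by genotype, treatment and time, with the group median as a bar. The 16 *Elk1-/-Elk4-/-* libraries lie between -0.708 and -0.533 and every other library lies at -0.112 or above. The resting *Elk1-/-Elk4-/-*, WT and *Map3k8*[D270A] libraries chose the genes.

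The difference from WT was still there after LPS. At 0.5 h all of the 106 genes but *Rplp2-ps1* were called lower in *Elk1-/-Elk4-/-* cells (limma, Benjamini-Hochberg adjusted p under 0.05 over 11884 genes), against a background of 22.0% of all genes. At 1 h the count was 100 (background 26.2%) and at 2 h 97 (background 23.1%). None of the 106 was called higher at any of the 3 times, where 22.4%, 27.2% and 27.7% of all genes were; by unadjusted p under 0.05 the 2 h count of genes lower or higher was 99, and 6683 of all 11884 genes. The median difference was -0.82, -0.85 and -0.75, where the median of all genes tested was 0.00, 0.01 and 0.02. A difference of at least 1 was reached by 31, 35 and 28 of the genes, against 0.446%, 0.665% and 0.959% of all genes. The call was made at all 3 times for 94 of the 106 genes (background 12.7%) and at none for *Rplp2-ps1*. The same-numbered libraries of a genotype deviate together across times (median correlation 0.393 over 90 pairs), so the LPS libraries are other libraries but not fully separate cultures from those that chose the genes.

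In *Map3k8*[D270A] cells the share of the 106 genes called lower followed that of all genes at each LPS time. At 0.5 h 1 gene was lower and 1 higher than in WT cells (backgrounds 0.892% and 0.480%), at 1 h 5 were lower and 1 higher (4.64% and 5.14%), and at 2 h 16 were lower and 6 higher (13.1% and 14.6%). The largest differences at 2 h were those of *Mt2* (-2.11), *Egr1* (-1.81), *B3gnt7* (-1.72), *Mt1* (-1.10), *Spata13* (-0.92) and *Cmklr1* (-0.86). At no time was a difference called for 81 of the 106 genes (background 67.7%), and 72 of these were lower in *Elk1-/-Elk4-/-* cells at all 3 times (background 8.62% for both together). The *Elk1-/-Elk4-/-* and *Map3k8*[D270A] comparisons share the WT libraries.

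Direct comparison of both mutants put 102, 104 and 92 of the 106 genes lower in *Elk1-/-Elk4-/-* cells at 0.5, 1 and 2 h of LPS (backgrounds 23.6%, 25.5% and 23.2%), with medians of -0.80, -0.82 and -0.69, and 0 higher by limma (backgrounds 25.8%, 26.1% and 26.4%). At an unadjusted p under 0.05 there were 104, 104 and 93 genes in both directions, and 6541, 6771 and 6562 of all genes. The rule had set the resting *Elk1-/-Elk4-/-* mean below that of *Map3k8*[D270A] cells for all 106 genes. Same-numbered libraries of a genotype deviate together across times, so these counts are read as a description. The count of calls in *Map3k8*[D270A] cells depended on the libraries entered. With WT replicates 4 to 6 and *Map3k8*[D270A] replicates 1 to 3 alone, 13 of the 106 were lower at 1 h and 29 at 2 h, where 6.78% and 16.3% of all genes were. With WT 7 to 9 and *Map3k8*[D270A] 4 to 6, 2 were lower at 1 h, where 2.14% of all genes were.

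**Figure D3:**
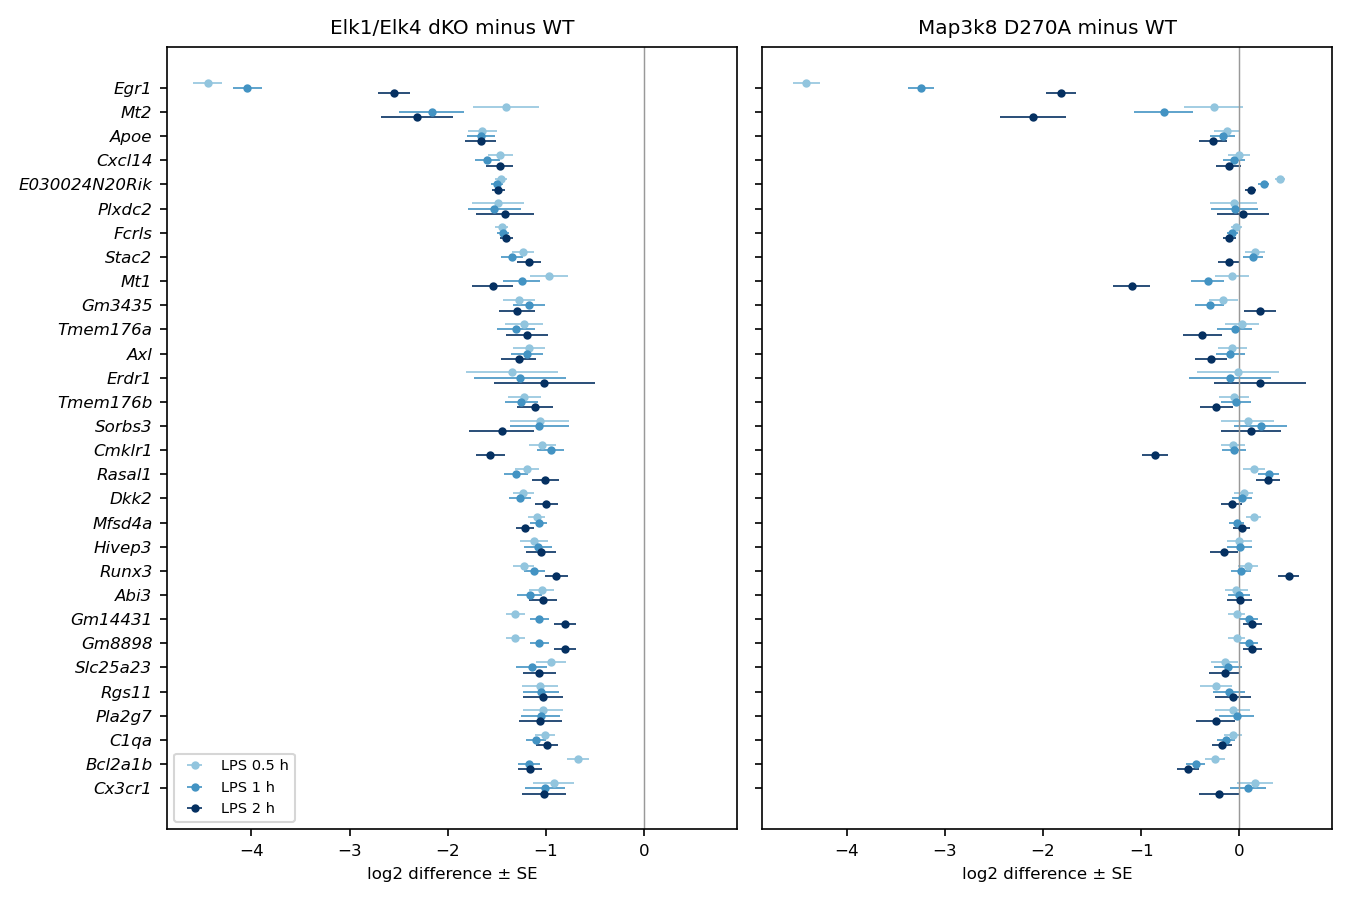
Log2 difference from WT with its SE at 0.5, 1 and 2 h of LPS for the 30 genes with the most negative mean difference in *Elk1-/-Elk4-/-* cells, at left for *Elk1-/-Elk4-/-* and at right for *Map3k8*[D270A] cells. At left all points lie below 0, and at right only *Egr1*, *Mt2*, *Mt1* and *Cmklr1* reach -0.8 or lower.

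*Egr1*, the zinc finger factor of the immediate early response, had the largest difference between *Elk1-/-Elk4-/-* and WT cells among the 106 genes at each LPS time. In resting WT libraries it ranged from 7.70 to 8.33 with a median of 8.02, and the *Elk1-/-Elk4-/-* libraries read 6.96, 7.17, 6.98 and 6.96. At 0.5 h of LPS WT libraries ranged from 13.02 to 14.27 around a median of 13.17, whereas *Elk1-/-Elk4-/-* libraries read 8.82, 8.96, 8.95 and 8.79 and *Map3k8*[D270A] libraries ranged from 8.66 to 9.15. Both mutants were thus far below WT and close to each other, with differences of -4.45 ± 0.151 (limma, adjusted p = 5.06e-31) and -4.41 ± 0.135 (adjusted p = 1.13e-32). At rest, in contrast, *Map3k8*[D270A] cells stood near WT (median 8.14), which is why *Egr1* met the rule. The difference between *Elk1-/-Elk4-/-* and WT cells was -4.04 at 1 h and -2.55 at 2 h, when the WT median had come down to 9.13.

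The metallothioneins *Mt1* and *Mt2*, small proteins that bind zinc and copper, were called lower in *Elk1-/-Elk4-/-* cells at each LPS time and in both mutants at 2 h. *Mt2* read 5.78, 5.91, 6.36 and 5.66 in resting *Elk1-/-Elk4-/-* libraries and 6.51 to 8.03 with a median of 7.40 in WT. At 2 h it read 8.86, 9.07, 8.82 and 8.56 in *Elk1-/-Elk4-/-* libraries and 11.16, 11.25, 11.65 and 10.51 in WT libraries, so that the groups did not overlap although both had risen. The differences from WT were -1.40, -2.17 and -2.32 in *Elk1-/-Elk4-/-* cells at the 3 times, each called. In *Map3k8*[D270A] cells they were -0.26 and -0.77 at 0.5 and 1 h, not called, and -2.11 ± 0.336 at 2 h (limma, adjusted p = 1.75e-06). *Mt1* was lower by -1.54 in *Elk1-/-Elk4-/-* and by -1.10 in *Map3k8*[D270A] cells at 2 h.

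*Apoe* kept its level through the response and its gap with it. WT libraries ranged from 15.97 to 16.66 (median 16.31) at rest and from 15.98 to 16.75 (median 16.31) at 1 h of LPS. The *Elk1-/-Elk4-/-* libraries read 14.48, 14.72, 14.83 and 14.51 at rest and 14.52, 14.73, 14.75 and 14.65 at 1 h. No library of one genotype reached the other, and *Map3k8*[D270A] libraries, at 15.95 to 16.32, overlapped with WT. The difference from WT was -1.65 ± 0.144, -1.67 ± 0.144 and -1.67 ± 0.157 at 0.5, 1 and 2 h (limma, adjusted p = 1.89e-13, 7.63e-14 and 1.09e-12), and in *Map3k8*[D270A] cells it lay between -0.27 and -0.13 and was not called. Without LPS, the DMSO-treated WT libraries of another experiment read 15.66 to 15.76, between the resting WT and *Elk1-/-Elk4-/-* ranges.

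*Cxcl14*, a chemokine for which macrophages are one source, followed the same course. It read 6.44, 6.46, 6.55 and 6.87 in *Elk1-/-Elk4-/-* libraries at 1 h and ranged from 7.88 to 8.40 with a median of 8.21 in WT. The groups did not overlap, and the difference was -1.60 ± 0.127 (limma, adjusted p = 6.12e-15). WT cells of the PD0325901 experiment lay between them, with a *Cxcl14* mean of 7.51 with DMSO and of 7.43 with the inhibitor at 1 h. *Fcrls*, an Fc receptor-like scavenger receptor of mouse macrophages and microglia, read 11.41, 11.55, 11.44 and 11.28 against 12.76 to 12.96 with a median of 12.88, a difference of -1.44 ± 0.063 at 1 h (limma, adjusted p = 7.80e-26). It was near WT in *Map3k8*[D270A] cells, whose libraries ranged from 12.70 to 12.87. With RSKi47 alone, however, *Fcrls* read 11.16 to 11.79, a range that takes in the resting *Elk1-/-Elk4-/-* values of 11.32 to 11.59.

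*Plxdc2* varied more from library to library. WT libraries ranged from 8.83 to 10.06 with a median of 9.67 at 1 h, and the *Elk1-/-Elk4-/-* libraries read 8.31, 7.93, 7.65 and 8.14. The ranges did not overlap and the difference was -1.53 ± 0.267 (limma, adjusted p = 4.11e-06). Its resting level was also low in *Nfkb1*[SS/AA] cells, at 7.93 to 8.73 against 8.83 to 9.95 in WT and 7.59 to 8.11 in *Elk1-/-Elk4-/-* cells.

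*Stac2*, an adaptor protein with an SH3 domain, read 7.46, 7.37, 7.18 and 7.34 against 8.36 to 8.90 with a median of 8.75, a difference of -1.35 ± 0.112. *E030024N20Rik*, an unnamed transcript, read 6.98, 6.98, 6.96 and 6.95 against 8.31 to 8.60, and it was the 1 gene called above WT in *Map3k8*[D270A] cells at 0.5 h (0.41 ± 0.054, limma, adjusted p = 2.17e-07).

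**Figure D4:**
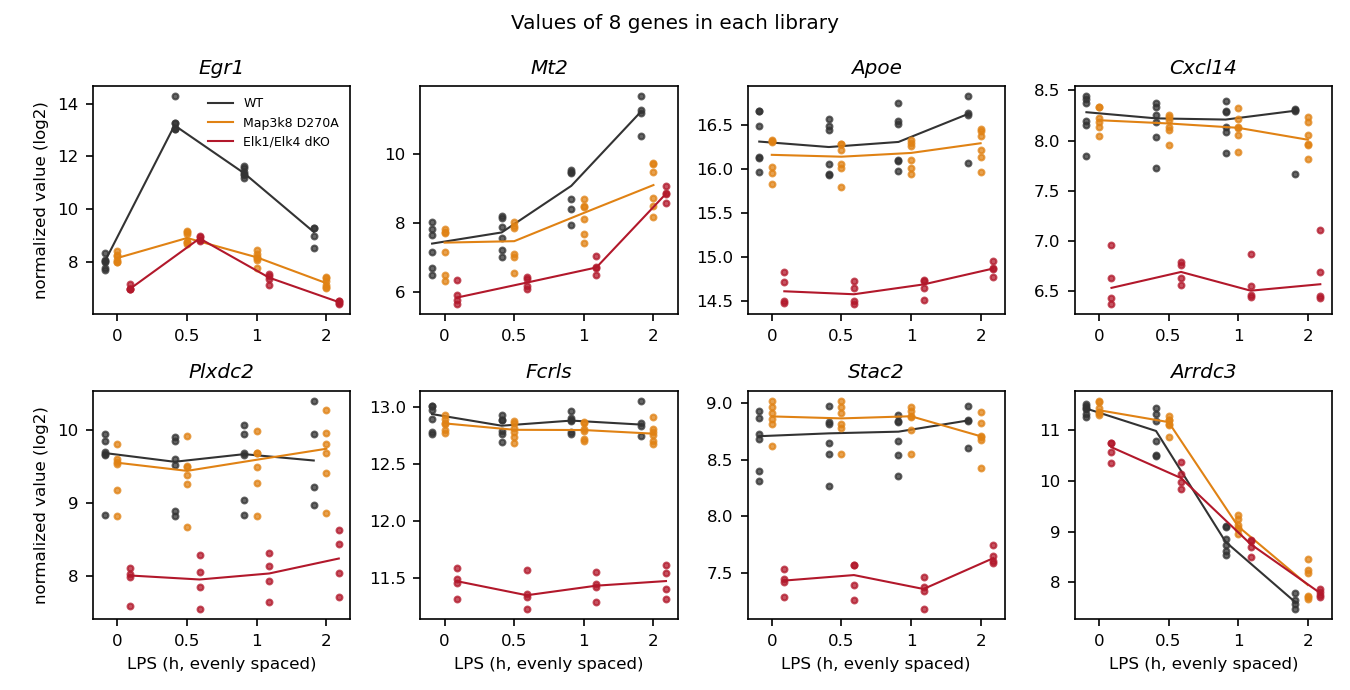
Log2 values of *Egr1*, *Mt2*, *Apoe*, *Cxcl14*, *Plxdc2*, *Fcrls*, *Stac2* and *Arrdc3* in each library of WT, *Map3k8*[D270A] and *Elk1-/-Elk4-/-* cells without LPS and at 0.5, 1 and 2 h, spaced evenly, with lines through the medians. *Egr1* reaches 13.02 to 14.27 in WT cells alone at 0.5 h, *Apoe* keeps its gap at all times, and *Arrdc3* falls in each genotype, with overlapping ranges at 2 h.

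The genes are described by role below. The roles were assigned after the values were known and carry no test of their own, and since 94 of the 106 genes were called at all 3 LPS times, against 12.7% of all genes, a full count sets no role apart. All 13 genes of phagocyte surface receptors were lower at all 3 times, with a median of -0.92, -0.85 and -0.995 at 0.5, 1 and 2 h. They include *C1qa*, of the complement C1q complex, at -1.10 at 1 h; *Axl*, a receptor for apoptotic cells, at -1.20; and *Tmem176a* and *Tmem176b*, neighboring membrane protein genes, at -1.30 and -1.25. *Clec7a* and *Fcgr2b* differed by -0.72 and -0.67.

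So were the 9 genes for chemokine, peptide and G-protein signaling, whose median was -0.97 at 1 h. *Cx3cr1*, the fractalkine receptor that marks microglia and monocyte-derived cells, was lower by -0.92, -1.01 and -1.02 over the time course. The chemerin receptor gene *Cmklr1* was lower by -1.04, -0.95 and -1.57, and at 2 h also in *Map3k8*[D270A] cells (-0.86 ± 0.136, limma, adjusted p = 1.55e-06). *Gpr34*, a receptor for lysophosphatidylserine, differed by -0.96 at 1 h and *Ramp1*, a partner of the receptor for the neuropeptide CGRP, by -0.91.

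The 9 genes for metal, heme and redox handling were called at the 3 times as well. Beside the metallothioneins these are *Slc40a1* (ferroportin), *Trf* (transferrin), *Slc11a1*, the zinc importer *Slc39a4*, the biliverdin reductase *Blvrb*, the peroxiredoxin *Prdx1* and *Gclm*, which helps make glutathione. At 1 h *Slc40a1* differed by -0.67, *Trf* by -0.81 and *Blvrb* by -0.86. At rest *Slc40a1*, *Mt1* and *Mt2* were not lowest in *Elk1-/-Elk4-/-* cells among the 9 groups without LPS. Of the 6 genes for lipid handling 4 were called at all 3 times; *Apoc2*, an activator of lipoprotein lipase, differed by -0.75 at 1 h and *Pla2g7*, which inactivates platelet-activating factor, by -1.05. *Angptl4*, which inhibits lipoprotein lipase, differed by -0.50, -0.17 and -0.88 and missed the call at 1 h, and *Hpgd*, which breaks down prostaglandins, missed it at 2 h (-0.63).

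The 8 genes for transcription factors and nuclear regulators were called lower at each LPS time. Beside *Egr1*, *Runx3*, a Runt-domain factor of leukocytes, was lower by -1.23, -1.12 and -0.89, while in *Map3k8*[D270A] cells it stood 0.50 above WT at 2 h. *Hivep3* rose in both genotypes between 0.5 and 2 h of LPS (by 2.46 in WT and 2.54 in *Elk1-/-Elk4-/-* cells) and remained lower by -1.05 to -1.12. *Batf3*, a factor of dendritic cell development, differed by -0.64, -0.85 and -0.37. The 7 genes for secreted and matrix proteins were also called at all times: *Dkk2*, a Wnt modulator, differed by -1.26 at 1 h, the angiogenic factor *Vegfa* by -1.10, the macrophage elastase *Mmp12* by -0.84 and the cytokine *Mif* by -0.82.

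Of the 20 genes of cytoplasmic signaling, 14 were called at all 3 times. *Rasal1*, which switches Ras off, differed by -1.31 at 1 h and *Abi3*, an actin regulator, by -1.16. *Bcl2a1b*, a gene of the anti-apoptotic A1 family whose near-identical copies can share reads, differed by -0.68, -1.17 and -1.16. The 10 genes for ribosomal, histone and other housekeeping proteins had smaller differences, with a median of -0.72 at 1 h and a range from -0.83 to -0.51. Among the 6 rows of pseudogenes or multicopy families, 4 were called at all times; their reads can be split between copies and their values are uncertain.

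*Mfsd4a*, a transporter-like gene, lies beside a targeted locus. Its annotated span on GRCm38.p6, chr1:132022806-132069658, overlaps with that of *Elk4*, chr1:132007577-132026448. It differed by -1.09, -1.07 and -1.22, and the targeted allele beside it and the loss of ELK4 cannot be told apart. *Gpr34* was the gene nearest to *Elk1*, 7.31 Mb away on the X chromosome. No other of the 106 lay within 10 Mb of either gene, and together they are spread over 19 chromosomes.

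The difference between *Elk1-/-Elk4-/-* and WT cells moved toward 0 or above between 0.5 and 2 h of LPS for 7 of the 106 genes, where 7.09% of all genes moved up, and further down for 2, where 6.59% moved down. With the culture as a random block, which takes up that same-numbered libraries deviate together, the counts were 15 up and 6 down, where 12.8% and 10.4% of all genes moved. The upward counts are near the shares of all genes, and the genes below are given as single cases. *Arrdc3*, an arrestin-domain gene that LPS turned down in both genotypes, read 10.58, 10.76, 10.76 and 10.36 in resting *Elk1-/-Elk4-/-* libraries, against 11.27 to 11.52 in WT. Without LPS, DMSO-treated WT libraries lay lower still, at 10.16 to 10.24. The RSKi47 libraries (10.12 to 10.51) and *Nfkb1*[SS/AA] libraries (10.48 to 10.85) overlapped with the *Elk1-/-Elk4-/-* range. At 2 h *Arrdc3* read 7.75, 7.81, 7.87 and 7.70 in *Elk1-/-Elk4-/-* libraries. The WT libraries read 7.47, 7.56, 7.78 and 7.64, so that these 2 groups overlapped. The difference went from -0.88 at 0.5 h to -0.11 at 1 h and 0.17 at 2 h, a change of 1.04 ± 0.207 between 0.5 and 2 h (limma interaction, adjusted p = 0.000225). In *Map3k8*[D270A] cells *Arrdc3* was called above WT at 2 h, by 0.38 ± 0.140 (limma, adjusted p = 0.0368).

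*Frat1*, which stabilizes beta-catenin, and *Tifab*, a relative of the NF-κB adaptor TIFA, lost the difference in the same way. *Frat1* fell in WT cells from a median of 6.16 at rest to 4.01 at 2 h, where *Elk1-/-Elk4-/-* libraries read 3.94, 4.00, 4.09 and 4.22; the difference changed by 0.67 ± 0.173 (limma interaction, adjusted p = 0.00446). *Tifab* changed by 0.81 ± 0.18 (limma interaction, adjusted p = 0.00101). *Arhgef40* read 7.45, 7.75, 7.42 and 7.86 at 2 h against 7.77, 7.81, 7.59 and 7.18 in WT libraries, with overlapping ranges and a difference of 0.03. *Rplp2-ps1*, a pseudogene of a ribosomal protein gene, spread from 4.24 to 6.58 in WT libraries at 0.5 h and covered the *Elk1-/-Elk4-/-* values of 4.64, 5.10, 4.99 and 5.17.

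The genes whose difference moved further down were *B3gnt7*, a glycosyltransferase gene, by -0.75 ± 0.224 (limma interaction, adjusted p = 0.0175) and *Bcl2a1b* by -0.49 ± 0.165 (adjusted p = 0.038). Both were also lower than WT in *Map3k8*[D270A] cells at 2 h, *B3gnt7* by -1.72 ± 0.151 (limma, adjusted p = 1.95e-13) and *Bcl2a1b* by -0.52 ± 0.111 (adjusted p = 0.000228). Set directly against each other at 2 h, the mutants did not differ by a call for *B3gnt7* (0.25 ± 0.151). LPS itself moved many of the genes: between 0.5 and 2 h 27 fell and 31 rose in WT cells (backgrounds 36.0% and 36.2%), and 24 fell and 29 rose in *Elk1-/-Elk4-/-* cells (31.1% and 35.7%). *Oaf*, a secreted protein gene, rose by 3.16 in WT and by 2.97 in *Elk1-/-Elk4-/-* cells.

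Cells with the pathway interrupted at other steps were compared with the same WT libraries, and since the genes were chosen for low values in *Elk1-/-Elk4-/-* cells, smaller differences in the other arms are read as a description. *Nfkb1*[SS/AA] cells had 49 lower and 7 higher than WT at 1 h of LPS (backgrounds 21.9% and 20.5%), with a median of -0.22, and 52 and 7 at 0.5 h (15.6% and 16.7%). *Egr1* was lower by -3.06 ± 0.144 at 1 h (limma, adjusted p = 8.04e-35), *Plxdc2* by -1.30 and *Cx3cr1* by -1.03. PD0325901 had 61 lower and 1 higher at 1 h (19.3% and 16.4%), with a median of -0.30, and 53 and 1 at 0.5 h (15.0% and 14.5%). There *Egr1* was lower by -4.22 ± 0.144 (limma, adjusted p = 7.29e-46), *Vegfa* by -1.62, the vinexin gene *Sorbs3* by -1.35 and *Slc40a1* by -1.13. The last 3 were low in the same experiment without LPS or inhibitor: the DMSO-treated cells had mean levels of 9.44 for *Vegfa*, 6.53 for *Sorbs3* and 11.15 for *Slc40a1*, and resting WT cells 10.34, 7.85 and 12.13.

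All of these comparisons use 1 set of WT libraries, that of *Map3k8*[D270A], and the offset of those libraries stands beside them. Before any LPS, the median over the 106 genes relative to the same WT libraries was -0.32 in DMSO-treated WT cells and -0.23 in *Nfkb1*[SS/AA] cells, close in size to the medians after LPS. Within their own experiment, *Nfkb1*[SS/AA] cells at 1 h of LPS had 20 of the 106 lower and 13 higher than without it (backgrounds 21.9% and 22.5%). Within its own experiment PD0325901 at 10 min changed 0 of the 106 genes relative to DMSO by limma, 3 having an unadjusted p below 0.05, and 0 of all 11971 genes, or 0.00% (245 unadjusted). At 70 min 1 was lower, *Egr1* by -0.93 ± 0.204 (limma, adjusted p = 0.00115), and 4 were higher (backgrounds 2.65% and 2.08%), namely *E030024N20Rik*, *Hist1h1c*, *Ier5l* and *Frat1*. DMSO was given for 10 min only, so the treatments differ in time as well.

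In RSKi47-treated cells the genes differed from WT in both directions. At 1 h of LPS 48 were lower and 18 higher than in WT cells (backgrounds 26.3% and 26.5%), with a median of -0.19, and the counts at 0.5 and 2 h were 49 and 15 (24.5% and 23.7%) and 47 and 16 (24.6% and 27.5%). *Ptgfrn* and *Cx3cr1* were higher by 2.06 and 1.39 at 1 h, where both were lower in *Elk1-/-Elk4-/-* cells, and *Oaf* and *Mt2* were lower by -1.97 and -1.65. The *Mt2* value rests on 4 RSKi47 libraries that spread from 6.43 to 9.18 around a median of 6.72, so its size depends on the highest library. After 10 min of RSKi47 without LPS the mean levels were already apart, at 9.32 for *Ptgfrn* and 10.19 for *Cx3cr1* against 7.36 and 8.77 in resting WT cells, and the median over the 106 genes was -0.22. The inhibitor and its experiment cannot be told apart here. The RSKi47 libraries without LPS also carried more of the stromal markers, with a summed level of 5.93 to 9.45 against 4.75 to 5.08 in WT. Neutrophil markers summed to 7.52 to 7.84 there and to 7.57 to 8.27 in the DMSO-treated cells of the PD0325901 experiment, both above the 6.43 to 7.23 of WT. The part of either list was not tested.

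Set directly against these arms at 1 h, *Elk1-/-Elk4-/-* cells were lower for 86 of the 106 genes relative to *Nfkb1*[SS/AA] cells (background 30.5%), for 87 relative to PD0325901 (26.1%) and for 87 relative to RSKi47 (27.2%). The medians were -0.66, -0.56 and -0.65. *Apoe* was lower than in *Nfkb1*[SS/AA] cells by -1.55 ± 0.116 (limma, adjusted p = 1.72e-21), *Rasal1* than in PD0325901-treated cells by -1.30 ± 0.121 (limma, adjusted p = 4.22e-16), and *Runx3* than in RSKi47-treated cells by -2.19 ± 0.163 (limma, adjusted p = 1.71e-21). Higher in *Elk1-/-Elk4-/-* cells were 2, 3 and 1 genes (backgrounds 32.1%, 29.6% and 27.4%). Here, too, each arm is also another experiment. The rule chose the genes for low resting means in *Elk1-/-Elk4-/-* cells. Without LPS those means were already lower for 104 genes relative to *Nfkb1*[SS/AA] cells. They were lower for 101 relative to PD0325901 at 10 min and for 98 relative to RSKi47. The counts at 1 h are read as a description.

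**Figure D5:**
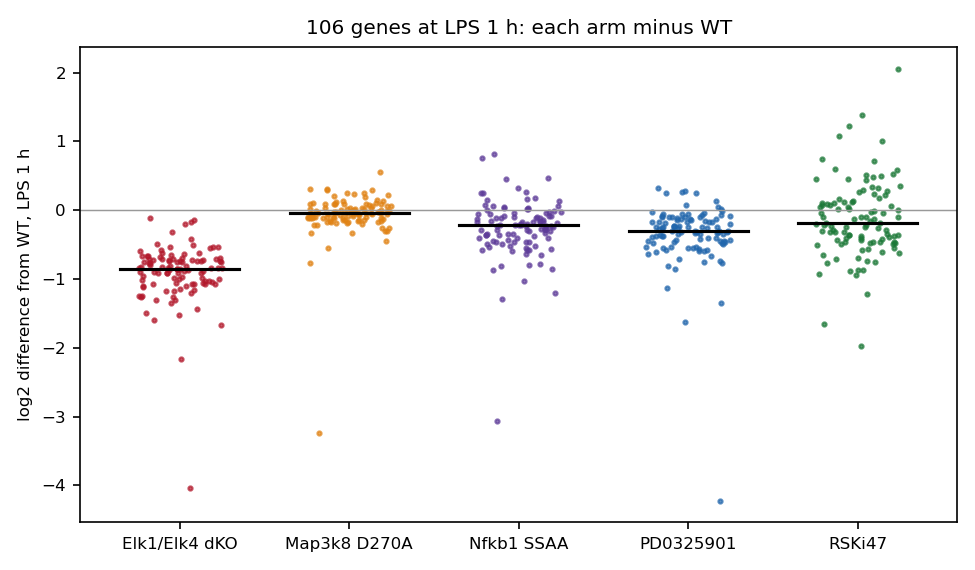
Log2 difference from WT at 1 h of LPS for the 106 genes in *Elk1-/-Elk4-/-*, *Map3k8*[D270A], *Nfkb1*[SS/AA], PD0325901-treated and RSKi47-treated cells, 1 point per gene, with the median as a line. The medians are -0.85, -0.04, -0.22, -0.30 and -0.19, and the lowest point in the first 4 arms is *Egr1*.

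Transcript composition moved with the genes. The median GC content was 54.7% for the 101 of the 106 genes with a reference transcript and 49.5% for the 11495 genes tested that had one, and the median length 2683 and 3376 bases. Over all genes the median difference between *Elk1-/-Elk4-/-* and WT cells at 1 h went from 0.14 in the lowest of 4 equal bins of GC to -0.14 in the highest, which held 57 of the 101 genes; between *Map3k8*[D270A] and WT cells it went from 0.01 to -0.03. After a correction for GC content and length per library, added once the data had been seen, 99, 95 and 93 of 101 genes were still lower at 0.5, 1 and 2 h, where 19.8%, 23.5% and 25.4% of all genes were, with a median of -0.76 at 1 h. The same correction at rest left 82 genes that meet the rule, 69 of them among the 106.

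Known targets of the ternary complex factors were listed apart from the rule. Of 12 immediate early genes among them, 10 were lower and 1 higher in *Elk1-/-Elk4-/-* cells at 1 h of LPS, with a median of -0.65, where 26.2% of all genes were lower and 27.2% higher. Of the 12, *Egr1* met the resting rule. *Egr3* was lower by -1.72 ± 0.15 at 1 h (limma, adjusted p = 1.25e-13), with resting means of 6.59 and 7.00 in *Elk1-/-Elk4-/-* and WT cells, *Fosb* was lower by -1.52 and *Junb* by -0.60. *Mcl1* was the member that was higher, by 0.16. Of 13 tested cytoskeletal targets of SRF 2 were lower and 5 higher, against the same shares of all genes, with a median of 0.07.

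Promoters were inspected for the letters these factors are known to prefer. RefSeq sequences of GRCm38.p6 from 250 bases before to 50 after a start were given for 78 of the 106 genes and searched on both strands for the ETS motif CCGGAAGT, its core CCGGAA, which it contains, and the CArG box of SRF (CC, then 6 bases each A or T, then GG). CCGGAAGT was found in 2 of the 78 (2.56%), *Rpl41* and *Mrpl52*, against 4.31% of all 27025 genes with a promoter and 9.59% of the genes tested. The core was found in 13 (16.7%), against 16.7% and 32.5%. A CArG box was found in 2 (2.56%), *Blvrb* and *Slc25a23*, against 1.81% and 1.47%. A match is a run of letters and not a measured binding site.

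Shown are the 250 bases upstream of the first listed start, 5' to 3' on the strand of the gene, for 5 of the members with a match, chosen to show each motif, and for *Apoe*, the leading lipid gene, whose window held none. Capitals mark the matched letters, as CCGGAAGT in *Rpl41* (chr10:128549169-128549418, minus strand), a CArG box in *Blvrb* (chr7:27447728-27447977, plus strand) and *Slc25a23* (chr17:57059864-57060113, minus strand), and the core read on the other strand in *Mt1* (chr8:94178839-94179088, plus strand) and *Cmklr1* (chr5:113643604-113643853, minus strand). That of *Apoe* is chr7:19699189-19699438 on the minus strand.
Rpl41: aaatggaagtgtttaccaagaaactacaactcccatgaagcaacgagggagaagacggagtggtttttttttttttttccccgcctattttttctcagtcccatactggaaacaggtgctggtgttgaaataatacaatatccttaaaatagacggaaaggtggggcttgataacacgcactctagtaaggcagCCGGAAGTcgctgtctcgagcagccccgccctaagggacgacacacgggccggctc
Blvrb: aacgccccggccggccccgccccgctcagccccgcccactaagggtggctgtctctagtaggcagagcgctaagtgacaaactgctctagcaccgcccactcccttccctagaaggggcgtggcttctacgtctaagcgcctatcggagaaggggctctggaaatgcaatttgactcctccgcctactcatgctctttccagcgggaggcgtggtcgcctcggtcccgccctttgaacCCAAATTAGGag
Slc25a23: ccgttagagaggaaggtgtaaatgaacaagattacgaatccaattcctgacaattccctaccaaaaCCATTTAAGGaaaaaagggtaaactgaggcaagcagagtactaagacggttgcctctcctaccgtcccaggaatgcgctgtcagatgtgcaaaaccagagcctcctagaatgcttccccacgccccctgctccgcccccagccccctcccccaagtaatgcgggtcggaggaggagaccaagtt
Mt1: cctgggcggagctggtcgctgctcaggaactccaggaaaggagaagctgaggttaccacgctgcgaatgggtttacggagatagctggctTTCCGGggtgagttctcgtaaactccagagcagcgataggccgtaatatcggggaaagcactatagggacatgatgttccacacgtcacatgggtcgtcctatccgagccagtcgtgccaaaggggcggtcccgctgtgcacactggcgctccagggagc
Cmklr1: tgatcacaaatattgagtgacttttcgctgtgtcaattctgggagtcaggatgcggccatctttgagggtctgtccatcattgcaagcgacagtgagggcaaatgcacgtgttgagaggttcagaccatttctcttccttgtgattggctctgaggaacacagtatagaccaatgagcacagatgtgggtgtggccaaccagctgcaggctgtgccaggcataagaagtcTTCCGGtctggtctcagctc
Apoe: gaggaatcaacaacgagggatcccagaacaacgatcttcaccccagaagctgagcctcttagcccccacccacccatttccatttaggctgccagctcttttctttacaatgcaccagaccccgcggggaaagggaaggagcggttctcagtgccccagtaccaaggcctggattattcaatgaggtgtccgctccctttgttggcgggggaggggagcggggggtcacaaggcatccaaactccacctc

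Relative to the start, the first base of the match lies at -56 in *Rpl41*, -12 in *Blvrb*, -184 in *Slc25a23*, -160 in *Mt1* and -20 in *Cmklr1*. At 1 h of LPS these genes differed between *Elk1-/-Elk4-/-* and WT cells by -0.69, -0.86, -1.15, -1.25 and -0.95, and *Apoe*, without a match, by -1.67.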

How the data were processed

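RNA-seq was made from BMDMs in 119 libraries. Reads were single-end and strand-specific, and the authors aligned them to mm10 and estimated counts per RefSeq gene; their processing notes name STAR 2.5.1b, RSEM 1.2.29 and DESeq2 1.10.1. The table the authors deposited holds log2 normalized values for 18098 genes, from -2.40 to 19.81. The sources used here do not give the transformation. If it drew libraries together or used another logarithm, differences are not on a plain log2 scale, so they are given as deposited and not as folds. Counts were not recovered, the depth per library is unknown, and errors rest on the spread between replicates alone. A value of 57.73 (*Fosb*, RSKi47 replicate 1, 1 h) was set to missing.

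Groups were compared with limma 3.58.1 (R 4.3.3, moderated test, Benjamini-Hochberg adjustment over all genes tested, threshold 0.05). WT, *Map3k8*[D270A] and *Elk1-/-Elk4-/-* cells were fitted in 62 libraries, over 11884 genes that reached 10 on the linear scale in 4 libraries. The other arms were fitted in all libraries, over 11971 genes that did so in 3 libraries. All 106 genes passed both filters, and in the resting *Elk1-/-Elk4-/-* libraries too. The scripts were tested on simulated data. The members and lists were chosen with earlier results of these data known. Named are the 30 genes with the most negative mean difference between *Elk1-/-Elk4-/-* and WT cells over the LPS times, with library values for the first 8 and the 4 least negative, the 3 genes on either side of the limit, genes within 10 Mb of *Elk1* or *Elk4*, up to 6 genes by size in each further comparison, and others as examples of a role, chosen after their values were seen. Alternatives were no filter, a mean-variance trend, other normalizations, a culture block, other control libraries, another limit and leaving out each replicate. Same-numbered libraries of 1 genotype deviated together over time (correlation over 0.1 in 84 of 90 pairs), whereas *Elk1-/-Elk4-/-* and *Map3k8*[D270A] libraries of 1 number did so in 2 of 16 pairs. Symbols were placed with RefSeq for GRCm38.p6 (102 by symbol, 4 by synonym).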

Additional observations from a re-analysis of the deposited data

Results flagged for a closer look

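A library that stood apart from the others of its group was found in 9 of 156 combinations of a value and a group of 4 or 6 libraries that were checked. Chance alone gives such a library in about 1 of 20 groups. *Egr1* read 7.171 in resting *Elk1-/-Elk4-/-* replicate 2, with the others at 6.96 to 6.977, and 14.272 in WT replicate 8 at 0.5 h of LPS, with the others at 13.017 to 13.28. *Cxcl14* read 7.67 in WT replicate 7 at 2 h (others 8.294 to 8.314), and *Plxdc2* read 8.832 in resting WT replicate 4 (others 9.655 to 9.947).

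*Rplp2-ps1* stood apart at 0.5 h in *Map3k8*[D270A] replicate 1 at 6.646 (others 5.64 to 5.956) and in WT replicate 4 at 6.581 (others 4.241 to 5.077). *Arhgef40* read 7.225 in *Elk1-/-Elk4-/-* replicate 4 at 0.5 h (others 6.789 to 6.846), and *Frat1* read 5.194 in *Map3k8*[D270A] replicate 4 at 0.5 h (others 5.616 to 5.821). The median over the 106 genes was -0.689 in *Elk1-/-Elk4-/-* replicate 3 at 0.5 h (others -0.601 to -0.588).

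The difference between *Elk1-/-Elk4-/-* and WT cells changed between 0.5 and 2 h of LPS for 9 genes by the limma interaction. It became more negative for *B3gnt7*, by -0.745 (adjusted p = 0.0175), and *Bcl2a1b*, by -0.487 (adjusted p = 0.038). It moved up by 0.506 for *Gm8898* and *Gm14431* (adjusted p = 0.0128 for this 1 profile), by 0.572 for *Nat8l* (0.0287), by 0.673 for *Frat1* (0.00446), by 0.805 for *Tifab* (0.00101), by 1.044 for *Arrdc3* (0.000225) and by 1.895 for *Egr1* (9.28e-09).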

How the results depend on the processing

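The counts of genes lower in *Elk1-/-Elk4-/-* than in WT cells stayed within 1.5 times under each alternative run, with lowest values of 99, 94 and 77 at 0.5, 1 and 2 h of LPS, each with WT replicates 7 to 9 alone. Leaving out 1 replicate gave at least 102, 98 and 94. For *Map3k8*[D270A] against WT it gave 2 to 3, 4 to 9 and 16 to 23, and for the direct comparison of both mutants 99 to 103, 98 to 104 and 87 to 94. The share of all genes called is not given for these settings, so these counts are not set against all genes. With all libraries, 22.0%, 26.2% and 23.1% of all genes were lower in *Elk1-/-Elk4-/-* than in WT cells at 0.5, 1 and 2 h. WT replicates 4 to 6 with *Map3k8*[D270A] replicates 1 to 3 alone gave 19 at 1 h and 38 at 2 h (13.4% and 37.4% of all genes called), and WT 7 to 9 with 4 to 6 gave 6, 2 and 5 (1.73%, 4.11% and 10.2%). At 2 h WT replicates 7 to 9 hold 1 library, which the fit assumes to vary like the other groups. The numbers do not pair the genotypes. With the replicate number as a fixed block, replicates 4 to 6 gave 48 at 1 h (37.6% of all genes). With the culture as a random block the change from 0.5 to 2 h was called for 21 genes (23.2% of all genes) and PD0325901 at 70 min against DMSO for 10 (9.41%). In no other comparison did a block move the count by over 1.5 times.

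The rule itself gave 160 genes at a limit of -0.6, 61 at -0.8 and 33 at -1, and 103 to 126 with 1 replicate left out. With other controls, chosen after seeing the data, it gave 76 genes against DMSO-treated WT cells, 38 of them among the 106, and 131 against *Nfkb1*[SS/AA] cells, 48 of them among the 106. For 34 genes the mean difference between *Elk1-/-Elk4-/-* and WT cells over the LPS times was followed under alternatives. Of 608 such values, 600 kept their direction and call. With all libraries the mean difference was -0.32 for *Arhgef40* and -0.27 for *Arrdc3*, each called. *Rplp2-ps1* turned to 0.177 with WT replicates 7 to 9 alone and was called at -0.695 with WT 4 to 6 alone. *Arhgef40*, *Arrdc3* and *Frat1* lost the call with WT 7 to 9 alone (-0.107, -0.216 and -0.177), *Arhgef40* and *Frat1* after the GC and length correction (-0.189 and -0.084), and *Arhgef40* without *Elk1-/-Elk4-/-* replicate 3 (-0.263). The cause was not tested. For *Nfkb1*[SS/AA], PD0325901 and RSKi47 cells no replicate was left out.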
